A study of Mus musculus with 3 samples.

Results

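The regions described here are stretches of mouse chromosomes 2 and 13 that are rich in genes of KRAB zinc finger proteins. They were chosen by position alone in the mm9 build, as all 1 kb windows of chr2:175000001-178000000 (3 megabases) and chr13:65500001-68700000 (3.2 megabases), a rule that uses no measured value. They hold 3000 and 3200 windows, or 6200 of the 2725738 windows in the files. RNA was measured in 1 group of samples, ovulated mouse oocytes from 3 litters, with 1 sequenced library per litter. The females were superovulated, of mixed strain, homozygous for a floxed allele of LSD1 (a histone demethylase gene, also called Kdm1a) and negative for the ZP3::Cre transgene, in which the promoter of an oocyte gene drives the recombinase. Without the transgene the allele is not recombined by it, and the series calls the samples wild type. Oocytes were in lysis buffer by embryonic day 0.5, and their total RNA was amplified by SPIA, an isothermal linear amplification, before libraries were built. That the regions are rich in zinc finger genes was known when they were chosen and was not looked up in these data. How many females or oocytes went into a library is not given in the labels, and the litters are the only replicates.

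KRAB zinc finger proteins are the largest family of mouse transcription factors. Each protein reads a DNA sequence through a row of zinc fingers, and its KRAB domain recruits the corepressor TRIM28, which brings histone methylation and silencing to the bound site. Many members bind transposable elements, and the genes arose largely by tandem duplication, so that they lie in clusters of similar copies. One such family on chromosome 13, the Rsl genes, is known for repressing sex-limited genes in the mouse liver. In oocytes and early embryos the TRIM28 pathway is known for keeping imprints and retroelements silent.

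The deposited tracks give the number of alignments over each base. Every alignment spans 72 bases, so summed depth divided by 72 is an alignment count, and CPM is that count per 1e6 alignments of its library. The libraries held 31787887 to 35183199 alignments. A read reported at several places counts at each of them, so a covered base need not be a transcribed base. No gene annotation or sequence of the mm9 build was used, so levels are given by window, no gene is assigned to a window and markers of oocytes or cumulus cells were not checked. The RNA is bulk RNA, in which fewer oocytes with a transcript and less of it per oocyte cannot be told apart. An exact sign-flip test over 3 litters cannot give a two-sided p below 0.25, so none was run, and statements on regions rest on the values of each litter. Nothing says that the litters were processed apart, so their spread may in part be technical.

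Both regions were covered more widely than the rest of their chromosomes, but thinly. The chromosome 2 region had 3.78%, 2.93% and 3.58% of its bases covered in litters 1, 2 and 3 (3.43% ± 0.446, SD, n = 3), against 1.57%, 1.38% and 1.43% of the rest of chromosome 2. The chromosome 13 region had 4.52%, 3.88% and 5.96% (4.79% ± 1.06, SD, n = 3), against 1.46%, 1.23% and 1.33% of the rest of chromosome 13. Each region thus lay above its own chromosome in every litter, with no overlap, by a factor of 2.34 ± 0.200 on chromosome 2 and 3.57 ± 0.782 on chromosome 13 (SD, n = 3 each). Counting only bases under at least 5 alignments, the excess was smaller on chromosome 2. There the region had 0.835%, 0.793% and 1.01%, against 0.780%, 0.719% and 0.754% on the rest, a factor of 1.17 ± 0.144 (SD, n = 3). On chromosome 13 the factor was 3.00 ± 1.37 (SD, n = 3). Coverage of the chromosome 2 region, at any depth, was below that of the chromosome 13 region in every litter, by -0.740, -0.955 and -2.38 percentage points.

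The depth behind this coverage was low. A covered base of the chromosome 2 region carried 5.66, 6.26 and 5.65 alignments on average in litters 1, 2 and 3, against 63.1, 65.2 and 58.9 on the rest of that chromosome. In the chromosome 13 region the averages were 10.7, 9.45 and 16.3, against 80.4, 83.7 and 68.7 on the rest. In the chromosome 2 region 36.6% to 40.4% of covered bases had a depth of 1, and in the chromosome 13 region 23.7% to 33.7%. Coverage came in short blocks. The median unbroken block was 77 to 86 bases long in the chromosome 2 region and 86 to 96 bases in the chromosome 13 region, little more than 1 alignment. The longest blocks were 650 bases and 2915 bases. Of the windows, 2131 of 3000 on chromosome 2 and 2031 of 3200 on chromosome 13 had no coverage in any litter. Gaps of the assembly were not told apart from sequence without RNA.

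**Figure D1:**
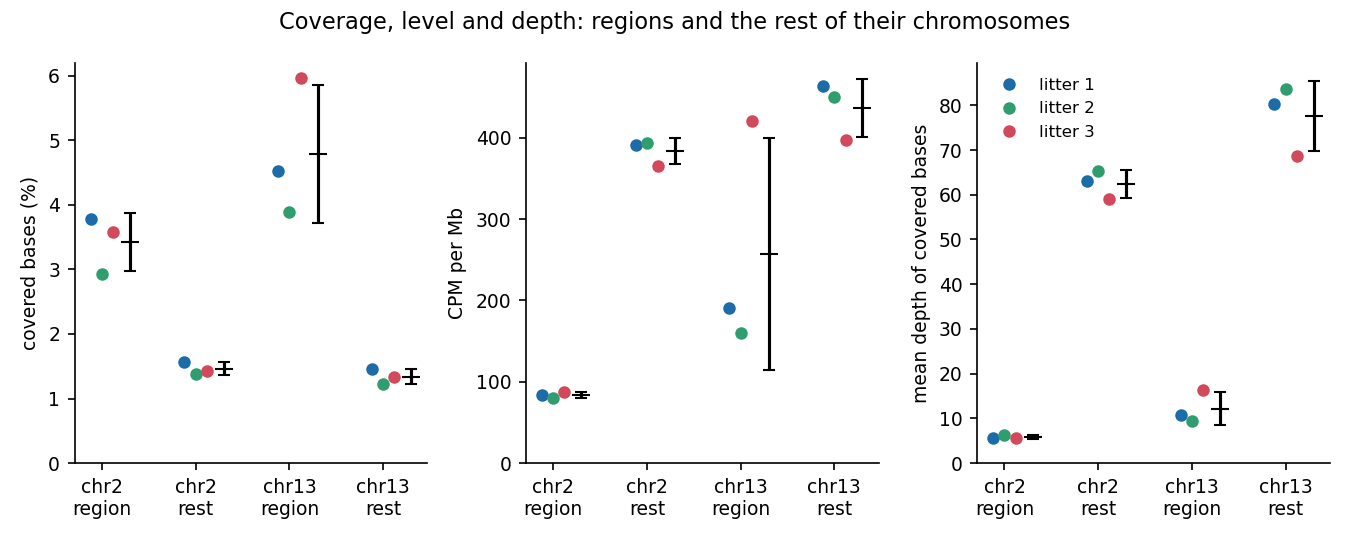
Percent of bases covered, CPM per megabase and mean depth of covered bases, for the chromosome 2 and chromosome 13 regions, each beside the rest of its chromosome. Points are the 3 litters and the black marks their mean with SD. Covered share is higher and mean depth lower in both regions than in the rest, and in CPM per megabase the chromosome 13 region reaches the level of its chromosome in litter 3 only (421 against 397).

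The level per megabase was low on chromosome 2 in all litters and differed between litters on chromosome 13. The chromosome 2 region had 84.4, 80.1 and 87.7 CPM per megabase in litters 1, 2 and 3, against 392, 394 and 366 on the rest of the chromosome. The log2 ratio to the rest was -2.19 ± 0.12 (SD, n = 3), and the 3 litters were close to each other. The chromosome 13 region had 191, 160 and 421 CPM per megabase, against 464, 450 and 397 on the rest. Its log2 ratios for those litters were -1.28, -1.49 and 0.086, with a mean of -0.89 ± 0.85 (SD, n = 3). The region was thus below its chromosome in 2 of 3 litters and level with it in litter 3. The chromosome 2 region was lower than the chromosome 13 region, relative to its own chromosome, in every litter, by -0.94, -0.81 and -2.15 on the log2 scale.

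This ratio depended on a few very deep windows of the rest. Without the 100 highest windows of the genome the log2 ratio was -1.58 for the chromosome 2 region and 0.091 for the chromosome 13 region. With each start position counted once it was -0.18 and 1.16. On average the chromosome 2 region stayed below its chromosome by both measures. The chromosome 13 region was level with its chromosome without the deepest windows, at an SD of 0.66 between litters, and above it by start positions.

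Few windows of the chromosome 2 region reached 1 CPM. There were 53, 30 and 80 such windows in litters 1, 2 and 3, or 1.81% ± 0.834 of windows, against 2.08% ± 0.0213 on the rest of the chromosome (SD, n = 3 each). The region and the rest overlapped in this measure. In the chromosome 13 region 136, 102 and 227 windows reached 1 CPM, or 4.84% ± 2.02, against 1.85% ± 0.0239 on the rest (SD, n = 3 each), and every litter was above the rest. Only 15 windows of the chromosome 2 region and 69 of the chromosome 13 region reached 1 CPM in all 3 litters.

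The next question was how much of this signal is a repeated depth pattern. The measure asks whether a run of neighbouring start positions, with its spacing and its counts in all 3 libraries, occurs again elsewhere in the genome in either direction. With runs of 3 starts and at least 50 alignments, 12.3% ± 5.86 of alignments in the chromosome 2 region recurred and 9.72% ± 1.06 in the chromosome 13 region (SD, n = 3 each). These values say little, because only 12.6% and 18.8% of the alignments lay in runs deep enough to be judged. A second definition, chosen after this was seen, takes 8 neighbouring starts with no minimum count, and 30.0%, 30.1% and 27.2% of all alignments of the 3 litters recurred by it.

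By runs of 8 starts nearly the whole signal of the chromosome 2 region was repeated. The recurring shares of litters 1, 2 and 3 there were 92.4%, 92.5% and 91.1%, against 43.7%, 42.5% and 33.1% on the rest of the chromosome. Their 95% Wilson intervals ran over 91.8 to 92.9, 91.9 to 93.1 and 90.5 to 91.7 percent. The chromosome 13 region had 60.6%, 54.8% and 67.6%, against 27.3%, 29.2% and 19.1% on the rest of its chromosome. Here the intervals ran over 59.9 to 61.2, 54.0 to 55.5 and 67.1 to 68.0 percent. The intervals treat every alignment as a separate observation. A read counts at each of its places, and amplified reads are not independent molecules, so the intervals are too narrow. In every litter the chromosome 2 region was above the chromosome 13 region, by 31.8, 37.8 and 23.6 percentage points, and both were above the rest of their chromosomes.

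Copies were more numerous on chromosome 2. Counting for each alignment the places at which its run occurs, 49.0% ± 5.75 of alignments in the chromosome 2 region had 10 or more places, against 0.432% ± 0.0616 on the rest of the chromosome (SD, n = 3 each). In the chromosome 13 region it was 6.55% ± 0.472, against 0.827% ± 0.403 on the rest (SD, n = 3 each). The mean alignment had 9.35 ± 0.590 places in the chromosome 2 region and 3.46 ± 0.306 in the chromosome 13 region (SD, n = 3 each). These are lower limits, since any further read that falls on 1 copy alone breaks the pattern there.

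**Figure D2:**
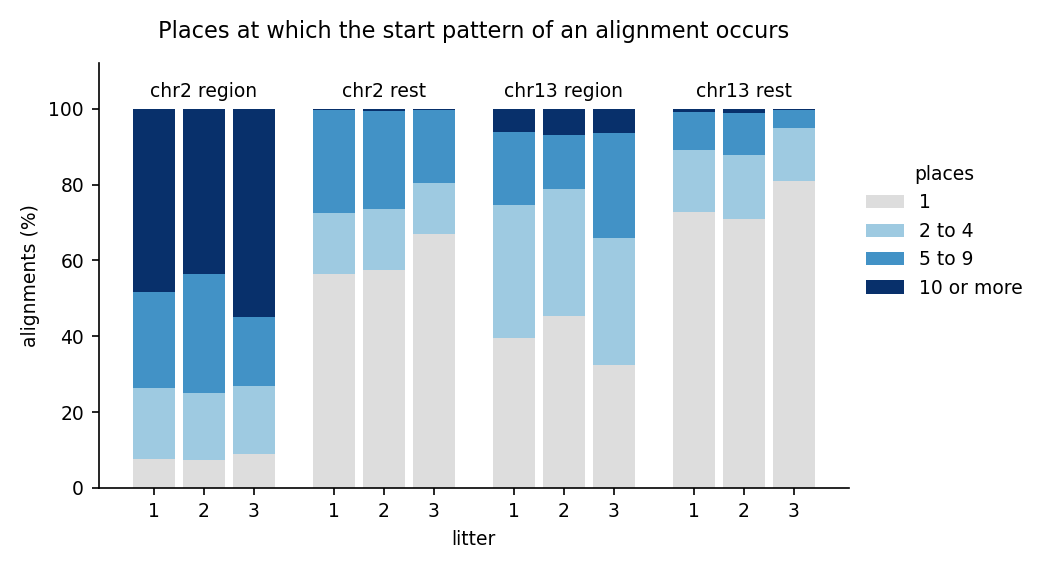
Percent of alignments by the number of genome places at which their run of 8 start positions occurs, for the chromosome 2 and chromosome 13 regions, each beside the rest of its chromosome, with 1 bar per litter. The darkest part (10 or more places) takes 43.6% to 55.0% in the chromosome 2 region and 6.10% to 7.04% in the chromosome 13 region.

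Dividing each alignment by its number of places lowered both regions. The chromosome 2 region then had 18.7, 17.2 and 19.6 CPM per megabase in litters 1, 2 and 3, against 262, 268 and 277 on the rest of the chromosome, a log2 ratio of -3.86 ± 0.09 (SD, n = 3). The chromosome 13 region had 108, 97.7 and 211, against 378, 359 and 349 on the rest, a log2 ratio of -1.47 ± 0.64 (SD, n = 3). Both regions lay below their chromosomes in every litter by this count, and litter 3 was again the highest on chromosome 13. Start positions divided in this way left the chromosome 2 region below the rest in every litter, but the chromosome 13 region above it. The covered shares given above were not divided by places. The chromosome 2 region had 0.235 ± 0.0137 times the start positions per megabase of the rest, and the chromosome 13 region 1.42 ± 0.479 times (SD, n = 3 each).

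Most recurring runs had a copy in their own region, and a part of the signal had copies elsewhere as well. Of the recurring runs of 8 starts, 96.9% in the chromosome 2 region and 86.3% in the chromosome 13 region had another copy inside their own region. Counted by alignments, 37.4%, 49.4% and 16.2% of the chromosome 2 region in litters 1, 2 and 3 had a copy on another chromosome, and 19.2%, 19.0% and 10.1% of the chromosome 13 region. Copies in the own region and nowhere else were found for 36.4% ± 7.33 and 33.5% ± 8.64 of alignments (SD, n = 3 each). No pattern was shared between the regions (0 of 2490 and 0 of 6223 distinct patterns). Copies in the same and in the opposite direction were about equally common, with 47.9% of pairs in the same direction on chromosome 2 and 45.0% on chromosome 13. Neighbouring copies of a pattern were a median of 227 kb apart on chromosome 2 and 181 kb on chromosome 13.

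**Figure D3:**
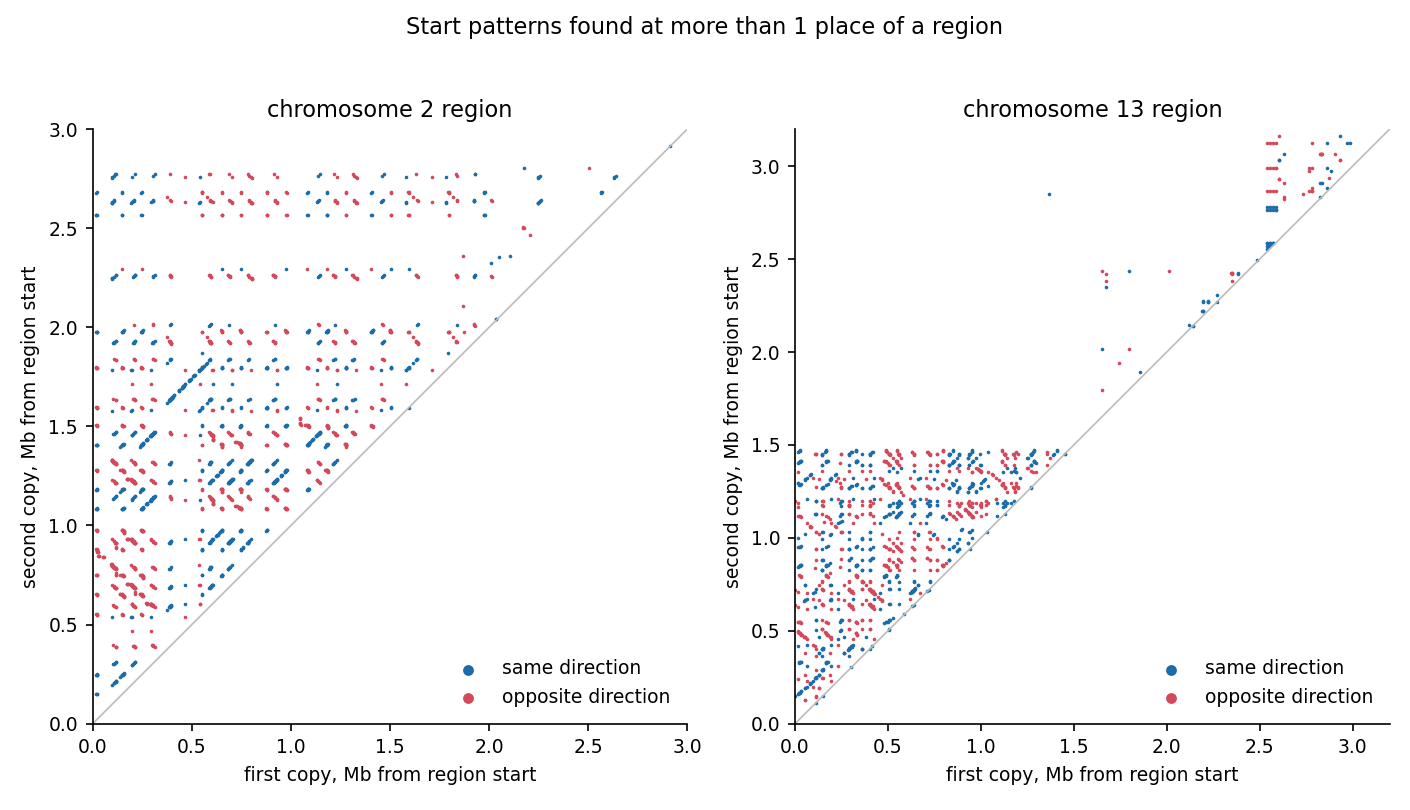
Each point is a pair of places of 1 region at which the same run of 8 start positions occurs, plotted by distance in megabases from the start of the region, with the first copy on the x axis and the second on the y axis. Blue points have the same direction and red points the opposite one. Copies spread over most of the chromosome 2 region, while in the chromosome 13 region they fall into separate blocks, with 1 of 21129 pairs joining the first 1.5 Mb to the remainder.

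Copied stretches were long on chromosome 2. The longest pair joined chr2:175205042-175246597 to chr2:175654196-175695751 in the opposite direction, over 41.6 kb. Both copies held the same 172 start positions, with 67, 66 and 142 alignments in litters 1, 2 and 3 at each. A second pair, chr2:175107857-175149040 and chr2:175751755-175792938, matched over 41.2 kb at 160 start positions, with 69, 65 and 124 alignments at each copy. Matched pairs of at least 10 kb numbered 51 in the same and 43 in the opposite direction inside the chromosome 2 region, against 0 and 0 inside the chromosome 13 region. Length could rest on few starts. A chromosome 2 pair of 40.0 kb held 7 shared runs at 14 start positions, and another of 30.3 kb held 1 run at 8 start positions. In the chromosome 13 region the longest pair measured 6.61 kb, with 1 run at 8 start positions. The stretch there with the most runs among the 8 longest joined chr13:66437119-66441281 to chr13:66629498-66633660 over 4.16 kb. Its copies were near-equal but not identical, with 49, 52 and 257 alignments at the first and 40, 47 and 239 at the second.

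The pattern with the most copies on chromosome 2 was found at 19 places, 18 of them inside the region and the other 64.6 kb before its first copy there. It spans 79 bases with 7, 3 and 15 alignments in litters 1, 2 and 3. Of the 18 steps between neighbouring copies 8 measured 90 to 110 kb, and the median step was 104 kb. The 1 kb windows that hold the copies had nearly the same level everywhere, with means over the litters of 1.32 to 1.79 CPM. Litter 3 was highest and litter 2 lowest in all 19. The 2 windows of this set among the 8 highest of the region were chr2:176279001-176280000, at 1.76, 1.09 and 2.52 CPM, and chr2:176084001-176085000, at 1.75, 1.01 and 2.42 CPM.

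On chromosome 13 the pattern with the most copies in the region was found at 16 places, 15 of them inside. It spans 93 bases and was seen in litter 3 alone, with 10 alignments there and 0 in litters 1 and 2. Its windows differed in level, with means of 2.14 to 9.65 CPM over the litters. The highest was chr13:66224001-66225000, at 8.15, 4.84 and 16.0 CPM in litters 1, 2 and 3. All copies lay before base 67000000.

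The 4 highest windows of the chromosome 2 region were copies of a single pattern. Window chr2:175096001-175097000 stood at 20.7, 23.8 and 4.93 CPM in litters 1, 2 and 3, and chr2:175804001-175805000 at 20.7, 23.8 and 4.81 CPM. They shared 330 patterns of 8 starts, all in the opposite direction. Windows chr2:177627001-177628000 (19.9, 23.7 and 4.71 CPM) and chr2:177245001-177246000 (17.3, 22.4 and 4.85 CPM) shared 223 and 274 patterns with the first, all in the same direction. Litter 3 was low and litters 1 and 2 high at all 4. The same patterns occurred at up to 15 places of the genome, among them windows chr10:56074001-56075000 (21.9, 24.8 and 4.81 CPM) and chr13:26584001-26585000 (21.6, 24.3 and 4.83 CPM), the second of which lies outside the chromosome 13 region. The 4 windows cannot be taken as separate transcripts. The next 4 windows of the region averaged only 1.73 to 1.82 CPM. The 8 highest windows together held 34.0%, 41.9% and 9.93% of the region's signal in litters 1, 2 and 3.

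The highest windows of chromosome 13 were a mix of sequence with and without recurring runs. Window chr13:66109001-66110000 was the highest, at 36.3, 38.6 and 20.2 CPM, with 74.0% of its alignments recurring, at up to 3 places. Its neighbour chr13:66108001-66109000 had 16.4, 26.1 and 14.2 CPM. Both shared patterns with chromosome 6 between 100181001 and 100237000. Window chr13:67988001-67989000 stood at 12.4, 10.2 and 21.7 CPM with 97.2% recurring, at up to 16 places on chromosomes 4, 8, 9, 14 and others.

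Other high windows of chromosome 13 had no recurring run at all. Window chr13:67098001-67099000 had 32.9, 23.4 and 20.7 CPM, and chr13:67591001-67592000 had 15.5, 13.8 and 18.0 CPM. Window chr13:67690001-67691000 had 60.8 CPM in litter 3, against 5.45 and 5.84 CPM in litters 1 and 2. The first pair differed by less than 2-fold between litters, and the last by 11.1-fold. In the chromosome 2 region the highest window without a recurring run, chr2:177803001-177804000, had 0.372, 0.382 and 1.37 CPM. Window chr2:177656001-177657000, with 20.7% recurring, had 3.75 CPM in litter 3, against 0.256 and 0.189 CPM in litters 1 and 2, or 120 alignments against 9 and 6. Without recurring positions the chromosome 2 region kept 6.73 ± 0.931 CPM per megabase and the chromosome 13 region 94.8 ± 36.2 (SD, n = 3 each).

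**Figure D4:**
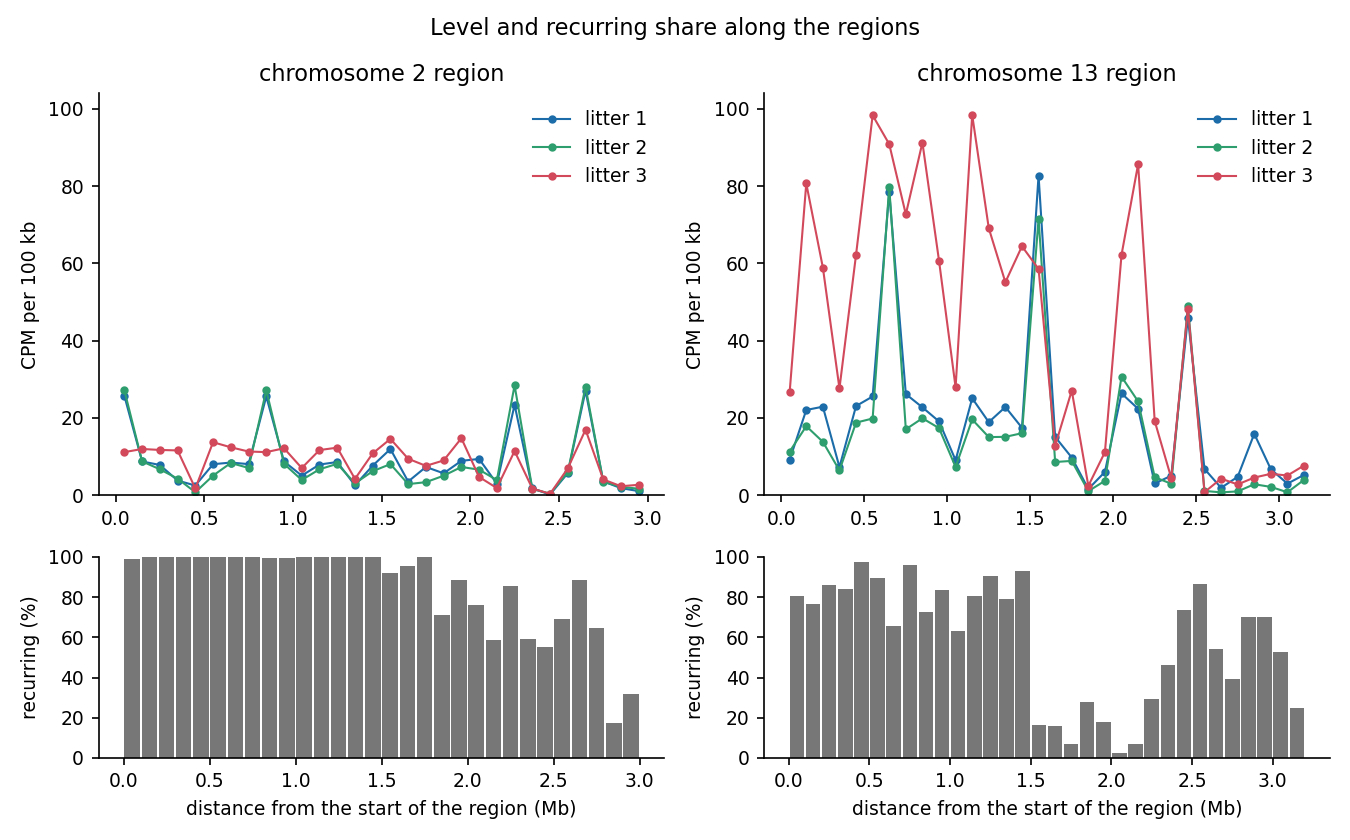
CPM per 100 kb along the chromosome 2 region (left) and the chromosome 13 region (right), with 1 line per litter, above the percent of alignments in recurring runs of 8 starts, pooled over the litters. On chromosome 13, litter 3 is the highest litter in all 15 bins of the first 1.5 Mb, where 63.0% to 97.7% of alignments recur. The border at 1.5 Mb was chosen after the values were seen, and bins share copies.

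Each region changed in character along its length. The borders used here were chosen after the values were seen. On chromosome 2, 99.1% ± 0.229 of alignments recurred between 175000001 and 176800000, and 78.2% ± 5.61 between 176800001 and 178000000 (SD, n = 3 each). On chromosome 13, 80.0% ± 4.60 recurred between 65500001 and 67000000 and 27.8% ± 5.38 between 67000001 and 68700000 (SD, n = 3 each). Copies crossed the border on chromosome 2 and hardly on chromosome 13. Of 34749 pairs in the chromosome 2 region 20.7% joined both parts, and in the chromosome 13 region 1 of 21129 did.

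The litters differed most in the first part of the chromosome 13 region. Between 65500001 and 67000000 litter 3 had 657 CPM per megabase, against 233 and 197 in litters 1 and 2, which is 3.05 times their mean. Litter 3 was the highest in all 15 bins of 100 kb there, up to a border chosen after the values were seen. Between 67000001 and 68700000 it had 213 CPM per megabase, against 154 and 128, or 1.51 times the mean, and was the highest in 9 of 17 bins. Bins share copies, so they are not separate observations, and the share over all bins of the genome was not counted. Across the genome litter 3 was the highest in 21292 of 52367 windows tested at 1 CPM. In the whole chromosome 13 region it was the highest in 136 of 166 such windows, which share copies as well. In the whole region litter 3 was higher outside recurring runs too. There it had 137 CPM per megabase, against 75.4 and 72.5 in litters 1 and 2. Some of that lay in window chr13:67690001-67691000 of the second part, at 60.8 CPM against 5.45 and 5.84, with no recurring run. The first part was not taken alone outside recurring runs.

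In the chromosome 2 region the totals were close, with litter 3 at 1.04 and 1.10 times litters 1 and 2, but most of the region was highest in litter 3. It was the highest litter in 21 of 30 bins of 100 kb, and in 15 of the 18 between 175000001 and 176800000. That stretch had 104 CPM per megabase in litter 3, against 89.9 and 80.9 in litters 1 and 2. As on chromosome 13, bins share copies, and the share over all bins of the genome was not counted. Of the region's windows tested at 1 CPM, 33 of 54 were highest in litter 3. The 4 copies of 1 pattern that led the region summed to 19.3 CPM in litter 3, against 78.7 and 93.7 CPM. Without these 4 windows the region had 81.3 CPM per megabase in litter 3, against 58.2 and 48.9, or 1.52 times the mean. In the chromosome 13 region 7 windows averaged 10 CPM or more by summed depth (9 by counts of leftmost bases, as in the tests below). Without these 7 windows litter 3 had 366 CPM per megabase, against 145 and 115, or 2.81 times the mean. Leaving out high windows was chosen after the data were seen. Each litter is 1 library, so these ratios have no replicate check.

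In the chromosome 13 region covered share was highest in litter 3 as well. Between 65500001 and 67000000, 8.89% of bases were covered in litter 3, against 5.77% and 5.27% in litters 1 and 2. On the rest of chromosome 13 litter 3 had the lowest level of the litters, at 397 CPM per megabase against 464 and 450. Outside recurring runs of 8 starts it was not the lowest there, at 321 against 337 and 319. Litter 3 also stood apart over the genome: without it, 1.08% of windows at 10 CPM were called, against 15.1% without litter 1 and 11% without litter 2. The part of this in the differences above was not tested.

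Single windows were tested for equal rates over the litters, with a chi-square test against counting error and Benjamini-Hochberg adjustment over all windows of the genome. A window was called at an adjusted p of at most 0.05 and over 4-fold between its highest and lowest litter. Of the genome's windows that averaged 10 CPM or more, 17.4% were called, with the highest level in litters 1, 2 and 3 in 3.01%, 5.64% and 8.76%. In the chromosome 2 region 4 of 4 were, the copies of 1 pattern described above, and in the chromosome 13 region 1 of 9, window chr13:67690001-67691000. The adjusted p of the 4 windows was at most 4.31e-72, with ratios of 4.49 to 5.01 and litter 2 highest and litter 3 lowest in each. The ratio of the chromosome 13 window was 11.1. Without litter 3, 0 windows were called in either region by this rule (0 of 4 and 0 of 7). The test sets litters against counting error only, which leaves out amplification. In each library 85.2% to 85.6% of alignments lay at a start position already taken by another alignment. With each start position counted once, the minimum applied to starts, so other windows could be tested. Then 0 of 4 windows of the chromosome 2 region and 12 of 62 of the chromosome 13 region were called, against 6.1% over the genome.

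With the minimum lowered to 1 CPM the order of the regions turned round. Then 34.7% of the genome's windows were called, against 17 of 54 (31.5%) in the chromosome 2 region and 99 of 166 (59.6%) in the chromosome 13 region. In the chromosome 13 region litter 3 was the highest in 92 of the 99, or 55.4% of windows tested there, while over the genome 9.07%, 11.6% and 14% of tested windows were called with litters 1, 2 and 3 highest. In the chromosome 2 region the highest was litter 1, 2 or 3 in 5, 6 and 6 of the 17. Of the called windows, 16 of 17 on chromosome 2 and 80 of 99 on chromosome 13 lay mostly in recurring runs (over 50% of alignments), so many are copies of each other. Without litter 3, 1 of 40 and 18 of 123 were called, against 11% over the genome. Without litter 1 it was 13 of 67 and 113 of 200 (27.1% over the genome), and without litter 2, 13 of 67 and 100 of 199 (23.2%).

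**Figure D5:**
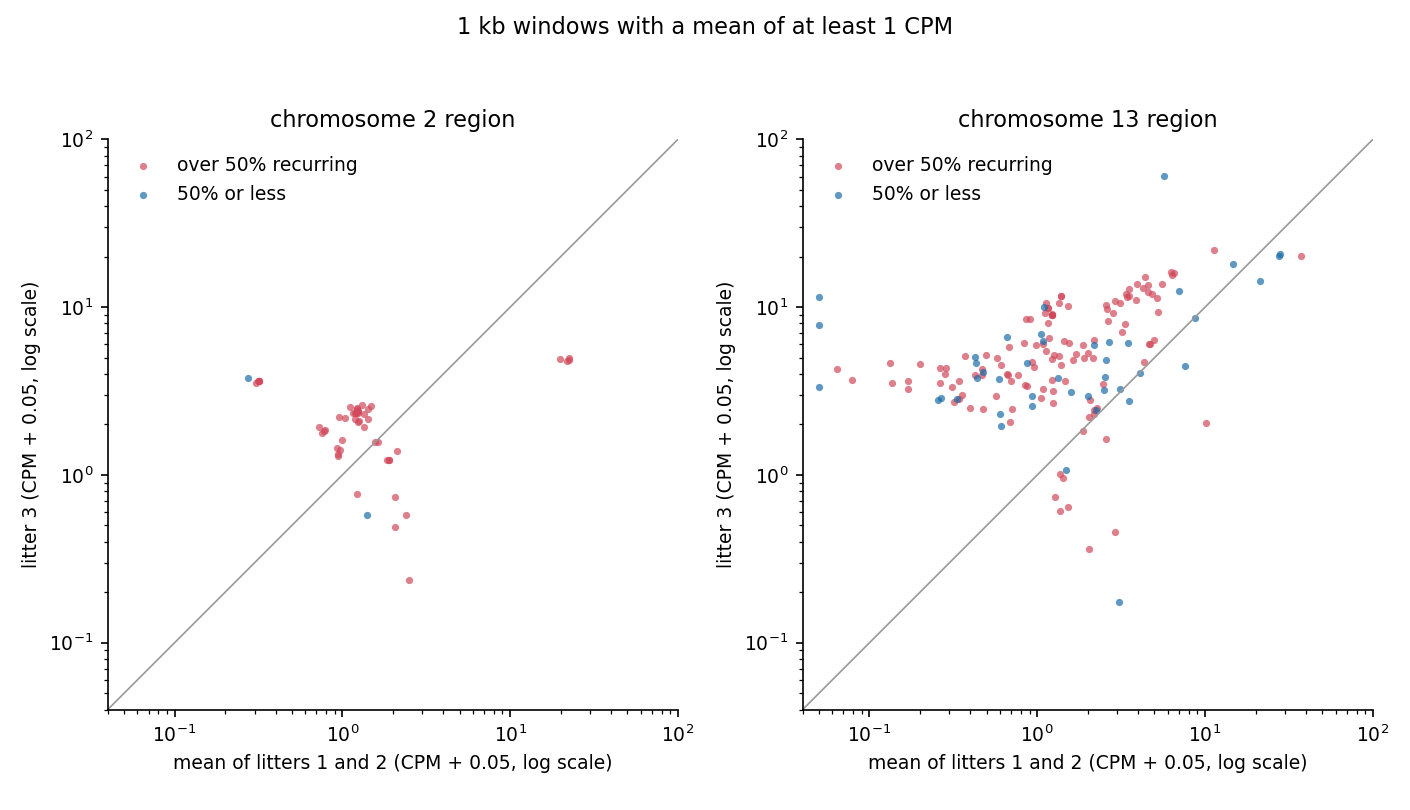
Windows of 1 kb that averaged 1 CPM or more, in the chromosome 2 region (left) and the chromosome 13 region (right), by the mean of litters 1 and 2 (x axis) and by litter 3 (y axis), in CPM plus 0.05 on log scales. Red windows have over 50% of alignments in recurring runs. The tight red group at the right of the chromosome 2 plot is the 4 copies near 20 CPM, and most windows of chromosome 13 lie above the line of equal level.

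Among the windows tested at 1 CPM, 4 of 166 in the chromosome 13 region had alignments in 1 litter only, in each case litter 3. In the chromosome 2 region it was 0 of 54. The share of such windows over the genome was not counted, so these counts cannot be called high or low. These windows passed the minimum through litter 3 alone, so their ratios follow in part from how they were picked. Window chr13:67589001-67590000 held 318 alignments in litter 3 and 0 in litters 1 and 2, at least 105-fold higher when 3 alignments per library are taken as the limit of a count of 0. Its neighbour chr13:67588001-67589000 held 136 against 0 and 0, at least 45.0-fold higher. Window chr13:67508001-67509000 held 248 against 0 and 0, at least 82.0-fold higher, and chr13:67245001-67246000 held 106 against 0 and 0, at least 35.1-fold higher. None of the 4 had a recurring run, so no copy of them was seen by this measure. About 1 kb past chr13:67589001-67590000, window chr13:67591001-67592000 held 612 alignments in litter 3, against 574 and 478, a like level in all litters. The window after it, chr13:67592001-67593000, held 398 in litter 3, against 204 and 215. Before chr13:67245001-67246000, window chr13:67243001-67244000 held 319 in litter 3, against 21 and 48, and chr13:67242001-67243000 held 153, against 118 and 51.

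Window chr13:67690001-67691000 differed from its next neighbour too. It held 1953 alignments in litter 3, against 192 and 186 in litters 1 and 2. The next window, chr13:67691001-67692000, held 83 in litter 3, against 79 and 177. Further on, chr13:67692001-67693000 held 70 in litter 3, against 3 and 6, and chr13:67693001-67694000 held 48, against 5 and 2. Litter 3 was thus high in 3 of these 4 windows and within the range of the others in 1. Neighbouring windows were chosen after their values were seen.

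Windows of copied sequence could be nearly absent from litters 1 and 2. Windows chr13:65516001-65517000 and chr13:66620001-66621000 each held 135 alignments in litter 3, against 2 and 0 at the first and 1 and 0 at the second. Of their alignments 92.7% and 91.9% recurred, at up to 9 places. In the chromosome 2 region chr2:175375001-175376000 and chr2:175576001-175577000 each held 115 alignments in litter 3, against 10 and 8 in litters 1 and 2, with 100% recurring at up to 6 places. The opposite was seen at chr2:177037001-177038000, with 6 alignments in litter 3 against 99 and 65. It was also seen at chr2:177244001-177245000, with 3 alignments in litter 3 against 114 and 35 in litters 1 and 2. The ratio there, 29.8, was the largest among the called windows of the chromosome 2 region. These counts are again repeated observations of shared patterns.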

How the data were processed

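Per the labels, RNA of ovulated oocytes from 3 litters was amplified and sequenced, with 1 library per litter. Reads were aligned with Bowtie to mm9, per the submitters' processing notes; no source used here gives its version, filters or the placements allowed per read. Each deposited file is a coverage signal, the unscaled number of alignments over each base, made from 1 lane, per the file headers. Alignments of 72 gapless bases were rebuilt from the steps in depth, with 0 negative counts in any library. CPM is the window's summed depth divided by 72, per 1e6 alignments of the file. Window tests used counts by leftmost base. Recurring runs are 3 neighbouring starts with at least 50 alignments, or 8 starts with no minimum, whose counts and spacing occur elsewhere. The number of places of an alignment is the highest among the runs of 8 covering it. Copied stretches join pairs at 1 offset with gaps of at most 2000 bases. Named windows are the 8 highest of each region and up to 5 called windows with the largest ratio between litters, at each minimum; those with no recurring run were added. Computations, run with Python 3.11.15, numpy 2.4.6 and scipy 1.17.1, were tested on simulated data. The regions and measures were chosen with earlier results of these data known. The annotation at hand is of GRCm38, another build, and was not used, so marker genes were not analysed here.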

Additional observations from a re-analysis of the deposited data

How the results depend on the processing

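Of 110 alternatives, 71 left a result within the spread between litters or, for shares of windows called and ratios of litters, within 1.5 times. Leaving out a litter can hardly move a mean past that spread, so those alternatives were a weak check. Runs of 8 starts and division by places were chosen after seeing the data. Counting a base as covered from 5 alignments lowered the covered share to 0.878% on chromosome 2, against 0.751% on the rest, and 2.01% on chromosome 13, against 0.668%. With 20 alignments per run of 3 the recurring share was 21.9% and 25.9% and its difference turned to -3.96 points; with 100 it was 4.95% on chromosome 13, and with runs of 4 starts 13%. Leaving out each litter gave 6.16% to 14.9% on chromosome 2, 5.56% to 7.94% on chromosome 13 and differences of -1.78 to 9.36 points, negative without litter 2. Runs of 6, 10 and 12 starts gave 93.8%, 91.0% and 90.1% on chromosome 2, and the difference of the regions by runs of 8 stayed between 27.4 and 35.1 points in every alternative run. The log2 level of the chromosome 2 region was -0.18 with each start counted once, -1.72 without recurring runs of 3, -1.58 without the 100 highest windows, -0.31 as a share of windows at 1 CPM, -5.10 without recurring runs of 8 and -3.86 divided by places. That of the chromosome 13 region turned to 1.16, 0.091 and 1.31 with starts counted once, without the 100 highest windows and as a share of windows, and was -1.84 without recurring runs of 8. The difference of the regions was -3.26 without those runs and -2.39 divided by places, and it was negative in every alternative run. Windows called were 31.5% and 59.6% at 1 CPM, 0% and 19.4% with starts counted once (differences of -28.2 and -19.4 points), and 55.6% on chromosome 13 at a 2-fold limit, with a difference of 44.4 points. Leaving out each litter gave 0% to 100% on chromosome 2, 0% to 10% on chromosome 13 and differences of 0 to 91.7 points, the lowest without litter 3. By the main rule only 4 and 9 windows stand behind these shares. Beyond the construction of each alternative, the cause was not tested. No paired analysis was possible because all libraries belong to 1 group. Depth limits the chromosome 2 region most, with 7637 to 8910 alignments per litter.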

Other observations

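Set beside all stretches of equal length on their own chromosome, the regions ranked high in coverage and repetition and not in level. Among 60 stretches of 3 megabases on chromosome 2, the region ranked 2 for covered share, 2 for the recurring share by runs of 8 starts (92.0%, against a median stretch of 9.55%) and 48 for CPM per megabase. Among 37 stretches of 3.2 megabases on chromosome 13, the region ranked 1 for covered share, 2 for the recurring share (63.1%, against a median of 18.1%) and 16 for CPM per megabase.

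Copies outside the regions had a few main addresses. Just before the chromosome 2 region, the megabase from 174000001 held 321 of the region's patterns, and 223 lay on chromosome 7 between 100000001 and 101000000. The next were chromosome 10 from 56000001 with 207 and chromosome 7 from 13000001 with 182. On chromosome 13, the part of the megabase from 65000001 that lies before the region held 768 of its patterns. Copies thus run across the border set for the region. On other chromosomes, the megabase from 100000001 on chromosome 6 held 572 patterns of the chromosome 13 region, those from 132000001 on chromosome 4 and 93000001 on chromosome 8 held 291 each, and that from 156000001 on chromosome 2 held 283. They were followed by chromosome 4 from 133000001 with 276 and chromosome 14 from 54000001 with 234.

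Levels of single windows were set side by side between litters. Pearson's r of log2(CPM + 0.5) over the 869 windows with coverage in the chromosome 2 region was 0.78 between litters 1 and 2, while litter 3 gave 0.73 with litter 1 and 0.68 with litter 2. Over 1169 windows in the chromosome 13 region the same pairs gave 0.83, 0.72 and 0.72. Spearman's rho was lower, at 0.44 to 0.52 on chromosome 2 and 0.41 to 0.52 on chromosome 13. These are correlations across windows of shared libraries, many of them copies of each other, and the windows are not independent replicates.

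The longest stretches without coverage in any litter measured 63 kb on chromosome 2 (176334001 to 176397000) and 71 kb on chromosome 13 (68140001 to 68211000).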
